A study of Mus musculus with 10 samples.

Results

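The MHC class I presentation pathway was followed here through 8 genes, chosen by symbol, of the 37447 genes in the deposited expression table: H2-K1, H2-D1, B2m, Tap1, Tap2, Tapbp, Psmb8 and Psmb9. All 8 symbols were found. Class I molecules carry peptides from proteins made inside a cell to its surface, where CD8 T cells and natural killer cells read them. A polymorphic heavy chain pairs with beta-2-microglobulin, the TAP transporter pumps peptides from the cytosol into the endoplasmic reticulum, tapasin holds empty class I molecules at TAP, and interferon-inducible catalytic subunits alter which peptides the proteasome cuts. In the healthy brain microglia are among the cells that express the pathway, and interferons raise it.

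RNA was sequenced from microglia, the resident macrophages of the brain, taken from the brainstem of mice aged 6 weeks. One group held GFP-expressing microglia cut from tissue sections by laser capture microdissection (LCM_GFP, 4 libraries, 3 labelled female and 1 male). Another held GFP-expressing microglia collected by fluorescence-activated cell sorting (FACS_GFP, 3 libraries, 2 labelled female and 1 male), and the third held sorted wild-type microglia (FACS_WT, 3 libraries, 3 labelled male). The strain was labelled for the sorted wild-type mice (C57BL/6), and the strain and reporter allele of the GFP mice, and the promoter that drives GFP, are not given in the sources used here. Tissue for sorting was dissociated and passed over Percoll, and its RNA was taken up in TRIzol; tissue for laser capture was fixed in paraformaldehyde, frozen and sectioned, and its RNA was freed with proteinase K and acid phenol. Isolation method, fixation and RNA extraction therefore cannot be told apart. Each library is called a biological replicate in the labels, which do not say how many animals each came from, so p-values measure the spread between these libraries. Labelled sex is partly confounded with the GFP reporter, and which sequencer model served which library is not given in the sources used here.

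The promoters of the heavy chains, of B2m and of the Tap1-Psmb9 pair are shown because class I genes are known to share upstream elements, and 3 of these 4 windows carry them in a row. Of the 8 genes, 7 had a promoter window in the RefSeq table for GRCm38.p6. The first 3 windows hold the 200 bases before the annotated start, at chr17:34000348-34000547 on the minus strand (H2-K1), chr17:35262894-35263093 on the plus strand (H2-D1) and chr2:122147487-122147686 on the plus strand (B2m). Tap1 and Psmb9 point away from each other, and their window is the 225 bases between their starts, chr17:34187331-34187555, in the direction of Tap1. Capitals mark matches on either strand to the NF-kappaB motif, to the interferon regulatory factor core repeat AANNGAAA, to the CRE core TGACG, to the CCAAT box CCAAT and to the GC box GGGCGG.
H2-K1: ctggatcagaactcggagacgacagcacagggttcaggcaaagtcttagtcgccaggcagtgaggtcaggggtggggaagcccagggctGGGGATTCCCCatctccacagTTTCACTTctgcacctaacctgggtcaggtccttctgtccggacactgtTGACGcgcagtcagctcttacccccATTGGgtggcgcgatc
H2-D1: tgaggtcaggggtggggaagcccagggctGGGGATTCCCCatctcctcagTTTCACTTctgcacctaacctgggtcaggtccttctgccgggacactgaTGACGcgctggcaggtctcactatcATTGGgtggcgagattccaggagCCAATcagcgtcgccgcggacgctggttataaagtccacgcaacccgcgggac
B2m: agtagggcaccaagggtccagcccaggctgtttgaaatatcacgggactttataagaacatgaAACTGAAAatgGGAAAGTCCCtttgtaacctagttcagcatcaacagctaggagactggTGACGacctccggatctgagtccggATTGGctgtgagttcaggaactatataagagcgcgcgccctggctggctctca
Tap1 and Psmb9: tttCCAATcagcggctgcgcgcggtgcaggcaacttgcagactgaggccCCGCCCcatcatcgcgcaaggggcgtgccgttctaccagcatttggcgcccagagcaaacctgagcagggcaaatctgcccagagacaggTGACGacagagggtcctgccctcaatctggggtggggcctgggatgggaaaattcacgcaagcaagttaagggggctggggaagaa

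In H2-K1 and H2-D1 the matches followed the same order toward the start, the NF-kappaB motif, AANNGAAA, TGACG and a CCAAT box on the opposite strand. In the full RefSeq windows of the 2 heavy chains, 250 bases before to 50 after the start and so longer than the stretches printed, the best local alignment held 206 identical positions in 228 columns (90.4%). In B2m the matches to the first 2 motifs came in the other order, with AANNGAAA 137 to 130 bases and the NF-kappaB motif 126 to 117 bases before the start, again followed by TGACG and a CCAAT box. The Tap1-Psmb9 window held a CCAAT box, a GC box and TGACG, and the 250-base window of Tapbp held 2 CCAAT boxes and a GC box. The letters of none of the 5 motifs occurred in the 250-base window of Psmb8. Among 32851 promoter windows of 250 bases, 7.25% held the NF-kappaB motif, 21.3% AANNGAAA, 17.8% TGACG, 33.8% CCAAT and 32.7% GGGCGG. The 2 NF-kappaB matches in each heavy-chain window overlap. The motifs were chosen with the windows in view, and a match is a description of letters, not of a bound site.

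Levels are given as deposited FPKM (fragments per kilobase of transcript, relative to all mapped fragments). Sums of FPKM per library ran from 393949 to 632854, and 11075 to 12500 genes reached 1 FPKM. The 10 highest genes took 7.04% to 34.4% of the sum in laser-captured libraries and 6.67% to 16.7% in sorted ones. The embryonic globin Hbb-y reached 902 FPKM in laser-captured library 1 and 439 in library 3, against 0.102 and 0.0666 in libraries 2 and 4, and was listed at 0 in the 6 sorted libraries. The Y-linked genes Uty (15.6 FPKM) and Kdm5d (3.26) in laser-captured library 1, and Kdm5d (5.96) in library 3, went against their female labels, and Xist at 3.91 FPKM in sorted GFP library 2 went against its male label. Results are therefore also given below with laser-captured libraries 2 and 4 alone. The 24 measured microglia markers summed to between 3272 and 7546 FPKM in laser-captured libraries, 11823 and 14587 in sorted GFP libraries, and 13827 and 17727 in sorted wild-type libraries. The 10 oligodendrocyte markers summed to 2637 to 7489 FPKM in laser-captured libraries against 21.8 to 33.5 in sorted ones, and the 10 neuron markers to 896 to 2393 against 2.04 to 9.83.

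The tests used limma on log2(FPKM + 1), with p-values adjusted by Benjamini-Hochberg over all genes tested. A gene is called changed at an adjusted p under 0.05. Changes on this scale understate those of genes with low FPKM. In the laser-captured libraries 4 of the 8 genes were called lower than in sorted GFP microglia, H2-K1, B2m, Tapbp and Psmb8, and none was called higher. The same comparison called 19.6% of 13403 genes lower and 12.5% higher. The median log2 change was −2.84 over the 8 genes and −0.60 over all genes tested. Against sorted wild-type microglia H2-K1, B2m, Tapbp and Psmb8 were called lower, and none of the 8 was called higher. There 19.1% of 13415 genes were called lower and 12.3% higher, and the medians were −3.22 for the 8 genes and −0.59 for all. For 6 of the 8 genes, Tap2 and Psmb9 excepted, the laser-captured libraries lay below the sorted ones without overlap in both comparisons, as did 31.2% of genes against sorted GFP and 29.6% against sorted wild-type microglia. These 2 comparisons share the 4 laser-captured libraries. Between the sorted groups 0 of the 8 genes were called by limma, beside 0.11% of 11814 genes, and 2 of the 8 had an unadjusted p under 0.05, beside 13.1% of genes.

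In the laser-captured libraries markers of oligodendrocytes and neurons moved in the opposite direction to the class I genes, with 10 of 10 oligodendrocyte and 10 of 10 neuron markers called higher against both sorted groups, as were 7 of 10 astrocyte and 6 of 9 tested endothelial markers. The 10 endothelial markers, from a cell type that also carries class I, summed to 156 to 422 FPKM by laser capture and 64.4 to 77.0 in sorted libraries. Nearly all of the sorted sum was Slc2a1 (44.6 to 56.6 FPKM) and Pecam1 (13.3 to 22.8 FPKM). In sorted libraries 7 of the 10 stayed below 1 FPKM throughout, with Cldn5 listed at 0. Of 7 tested perivascular macrophage markers 2 were called lower, and the 8 in that list summed to 45.5 to 356 FPKM by laser capture and 234 to 363 when sorted. Most of that sum was Stab1, at 38.7 to 354 FPKM by laser capture and 198 to 313 when sorted. The 2 called lower were Mrc1 and Pf4. Mrc1 stood at 5.65 to 13.9 FPKM in sorted libraries and 0.00961 to 5.83 by laser capture, and Pf4 at 9.93 to 25.5 and 0 to 2.85. Cd163 stayed below 1 FPKM in every sorted library and stood at 0.789 to 1.26 FPKM by laser capture. Of 24 microglia markers 16 were called lower against sorted GFP and 21 against sorted wild-type microglia. Less class I RNA per microglial cell and a smaller share of microglial RNA in a library cannot be told apart in bulk samples. The part of other cells in the changes was not tested.

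**Figure D1:**
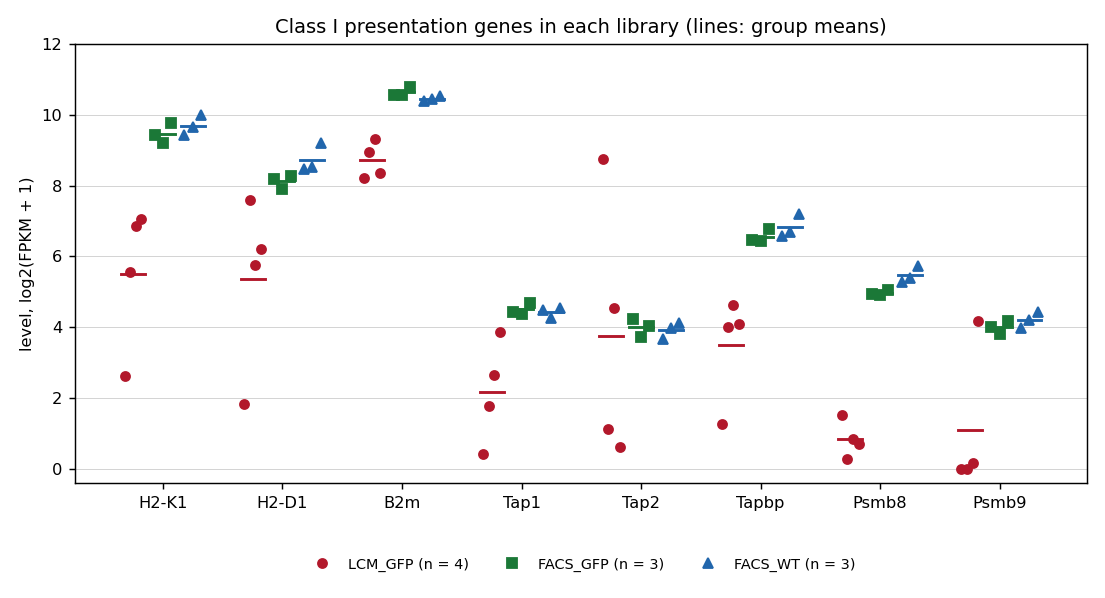
Level of each gene (horizontal axis) in each library on log2(FPKM + 1) (vertical axis), with circles for the 4 laser-captured GFP libraries, squares for the 3 sorted GFP libraries, triangles for the 3 sorted wild-type libraries and lines for group means. Psmb8 lay below 2 FPKM in the 4 laser-captured libraries and above 29 FPKM in the 6 sorted ones, while Tap2 and Psmb9 each had 1 laser-captured library far above the other 3.

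H2-K1 (ENSMUSG00000061232, mm9 chr17:34132962-34137278) and H2-D1 (ENSMUSG00000073411, mm9 chr17:35399675-35404444) encode the classical heavy chains that hold the peptide. H2-K1 stood at 5.16, 45.8, 114 and 131 FPKM in laser-captured libraries 1 to 4. The sorted GFP libraries held 691, 588 and 872 FPKM of H2-K1, and the sorted wild-type libraries 686, 798 and 1010.5. The 4 laser-captured libraries all lay below the 6 sorted ones, and the 2 sorted groups overlapped. In limma H2-K1 was lower by laser capture with a log2 change of −3.95 (SE 0.987, 95% interval −6.22 to −1.68, adjusted p = 0.0191) against sorted GFP and of −4.17 (SE 0.978, adjusted p = 0.0147) against sorted wild-type microglia. With laser-captured libraries 2 and 4 alone the changes of H2-K1 were −3.17 (limma adjusted p = 0.00762) and −3.39 (adjusted p = 0.00586). Leaving out any 1 of the sorted GFP libraries ended the H2-K1 call against that group (limma adjusted p from 0.0594 to 0.0748). Leaving out sorted wild-type library 3 ended the other (limma adjusted p = 0.0603). The sex label as covariate ended it too (−4.13). That fit sets laser-captured library 2 alone against the wild-type libraries, all labelled male, so its change rests on 1 laser-captured library.

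By laser capture H2-D1 gave 2.56, 192, 53.2 and 73.4 FPKM. It stood at 292, 240.1 and 309 in the sorted GFP libraries and at 350.3, 364 and 585 in the sorted wild-type libraries. Library 2, the highest of the laser-captured libraries for H2-D1, still lay below the sorted ones, and library 1 held the lowest level of the 10. H2-D1 was not called, with log2 changes of −2.78 (95% interval −5.50 to −0.05, limma adjusted p = 0.105) and −3.37 (−6.07 to −0.67, adjusted p = 0.0599). Without laser-captured library 1 the H2-D1 change was −1.60 (limma adjusted p = 0.0360) and −2.20 (adjusted p = 0.0140), and without library 2 it was −3.53 (adjusted p = 0.0490) and −4.12 (adjusted p = 0.0286), so either omission brought the call. With libraries 2 and 4 alone it was −1.22 (limma adjusted p = 0.0803) and −1.81 (adjusted p = 0.0347). Between sorted groups H2-D1 was lower in the 3 GFP libraries than in the 3 wild-type libraries, with a log2 change of −0.59 (95% interval −1.07 to −0.12, unadjusted p = 0.0202, limma adjusted p = 0.317). Groups that did not overlap in this direction held 9.29% of genes in that comparison. Of the 50-base stretches in protein-coding transcripts of H2-K1, 6.87% also occurred in another class I gene, most often H2-D1; the share was 11.0% for H2-D1, most often with H2-Q1. How reads that fit several class I genes were assigned is not given in the sources used here, so the heavy-chain values may hold reads of each other.

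B2m (ENSMUSG00000060802, mm9 chr2:121973422-121978819), the invariant light chain of every class I molecule, was the highest of the 8 genes by mean in each group. Its level was 299, 496, 635 and 329 FPKM in the laser-captured libraries. The sorted GFP libraries held 1523, 1513 and 1757 FPKM of B2m and the sorted wild-type libraries 1339.9, 1400.3 and 1480.2. B2m was the least variable of the 8 by laser capture in relative terms, its highest library at 2.13 times its lowest. The log2 change was −1.92 (SE 0.309, limma adjusted p = 0.00291) against sorted GFP and −1.74 (SE 0.314, limma adjusted p = 0.00472) against sorted wild-type microglia. With laser-captured libraries 2 and 4 alone the B2m changes were −1.98 (limma adjusted p = 0.00384) and −1.80 (adjusted p = 0.00522). The sex label as covariate ended the call against sorted wild-type microglia (−1.50). That fit sets laser-captured library 2 alone against the wild-type libraries, all labelled male. The 3 sorted GFP libraries lay above the 3 wild-type ones for B2m, as in 11.5% of genes, and the log2 change was 0.18 (95% interval −0.13 to 0.49, limma adjusted p = 0.569). In the authors' deposited table B2m was the one gene of the 8 with a q-value under 0.05, with log2 changes of −2.41 for laser-captured over sorted GFP (q = 0.00335) and 2.18 for sorted wild-type over laser-captured libraries (q = 0.0146). The other q-values of the 8 genes in the authors' deposited table were 0.717 or higher, Tap1 and Psmb9 had a failed test in both comparisons with sorted GFP, and Tapbp was joined there with Zbtb22.

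Tap1 (ENSMUSG00000037321, mm9 chr17:34324498-34334170) and Tap2 (ENSMUSG00000024339, mm9 chr17:34340472-34353266) encode the 2 chains of the peptide transporter. Tap1 stood at 0.340, 2.46, 5.25 and 13.5 FPKM by laser capture. Tap1 stood at 20.8, 19.7 and 24.8 FPKM in sorted GFP libraries and at 21.2, 18.4 and 22.2 in sorted wild-type libraries. No laser-captured library reached the sorted range, yet the limma adjusted p of Tap1 was 0.0516 (log2 change −2.32, 95% interval −4.11 to −0.54) and 0.0569 (−2.25, −4.03 to −0.47). Without laser-captured library 4 the Tap1 changes were −2.88 (limma adjusted p = 0.0152) and −2.81 (adjusted p = 0.0168), and without library 1 the first was −1.74 (adjusted p = 0.0463). With libraries 2 and 4 alone they were −1.68 (limma adjusted p = 0.0923) and −1.61 (adjusted p = 0.0985).

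Tap2 gave 427, 1.17, 22.2 and 0.541 FPKM in the laser-captured libraries. Its sorted levels were 17.7, 12.3 and 15.4 FPKM (GFP) and 11.7, 14.8 and 16.2 FPKM (wild type). Tap2 in laser-captured libraries 1 and 3 lay above, and in libraries 2 and 4 below, the whole sorted range. The log2 change of Tap2 was −0.24 (95% interval −4.36 to 3.87, limma adjusted p = 0.928) and −0.16 (−4.22 to 3.89, adjusted p = 0.953). Libraries 1 and 3 are also those with Hbb-y. With libraries 2 and 4 alone Tap2 was called lower, by −3.13 (limma adjusted p = 0.00273) and −3.05 (adjusted p = 0.00343). The part of whatever sets these 2 libraries apart in the level of Tap2 was not tested. The predicted genes Gm15821, within the Tap2 locus, and Gm20496, which spans Psmb8 to Tap2, overlap it, and the strand used in counting is not given in the sources used here.

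Tapbp (ENSMUSG00000024308, mm9 chr17:34052844-34066235) encodes tapasin, which bridges TAP and the empty heavy chain. Tapbp stood at 1.40, 14.9, 23.9 and 16.1 FPKM by laser capture. It stood at 86.6, 85.4 and 109 FPKM in sorted GFP and at 95.04, 102 and 146 in sorted wild-type libraries. No laser-captured library came near the sorted range, and the sorted groups overlapped. The log2 change of Tapbp was −3.06 (SE 0.779, limma adjusted p = 0.0206) and −3.32 (SE 0.780, adjusted p = 0.0147). Leaving out any 1 sorted GFP library ended the first call (limma adjusted p 0.0760 to 0.0903), and leaving out any 1 sorted wild-type library ended the second (0.0543 to 0.0729). The sex label as covariate ended the second too (−2.83), in a fit that sets laser-captured library 2 alone against the wild-type libraries. With laser-captured libraries 2 and 4 alone the changes of Tapbp were −2.51 (limma adjusted p = 0.00232) and −2.78 (adjusted p = 0.00315).

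Psmb8 (ENSMUSG00000024338, mm9 chr17:34334666-34338399) and Psmb9 (ENSMUSG00000024337, mm9 chr17:34318932-34324697) encode catalytic subunits that replace their constitutive counterparts in the immunoproteasome. By laser capture Psmb8 gave 1.85, 0.221, 0.800 and 0.630 FPKM. Sorted GFP libraries held 29.9, 29.3 and 32.3 FPKM of Psmb8, and sorted wild-type libraries 38.0, 41.3 and 51.8. The 3 groups did not overlap for Psmb8, in the order laser-captured, sorted GFP, sorted wild-type. Psmb8 had the largest log2 change of the 8 genes in both comparisons, −4.14 (SE 0.455, 95% interval −5.18 to −3.09, limma adjusted p = 0.000519) and −4.63 (SE 0.471, adjusted p = 0.000415). Psmb8 kept its call in each of the 21 alternatives run in each of these comparisons, and with laser-captured libraries 2 and 4 alone its changes were −4.48 (limma adjusted p = 0.00206) and −4.97 (adjusted p = 0.00274). Between the sorted groups its log2 change was −0.49 (95% interval −0.80 to −0.19, unadjusted p = 0.00546, limma adjusted p = 0.262), and this did not pass.

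Psmb9 was listed at 0 in laser-captured libraries 1 and 2, at 0.121 FPKM in library 3 and at 17.2 in library 4. Its sorted levels were 15.0, 13.1 and 17.2 FPKM (GFP) and 14.7, 17.3 and 20.7 FPKM (wild type). Laser-captured library 4 lay within the sorted range of Psmb9 and the other 3 far below it. Psmb9 was not called, with log2 changes of −2.91 (95% interval −5.30 to −0.52, limma adjusted p = 0.0632) and −3.11 (adjusted p = 0.0509). Without laser-captured library 4 the Psmb9 change was −3.94 (limma adjusted p = 0.000807) and −4.15 (adjusted p = 0.000932), and with libraries 2 and 4 alone −1.91 (adjusted p = 0.266) and −2.11 (adjusted p = 0.215). The table holds a second Psmb9 entry at nearly the same place (ENSMUSG00000092299, mm9 chr17:34318933-34324709), with 0.125, 0, 0.400 and 0.0136 FPKM by laser capture and 2.20 to 5.14 in sorted libraries. That entry was called lower in both comparisons, by −2.05 (limma adjusted p = 0.00136) and −2.02 (adjusted p = 0.00212). With both entries summed, an alternative chosen after seeing the data, Psmb9 was called lower by −3.06 (limma adjusted p = 0.0491) and −3.22 (adjusted p = 0.0408). In the file's mm9 coordinates the Psmb9 and Tap1 loci overlap at their 5′ ends, unlike the RefSeq starts in GRCm38.p6 given above.

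**Figure D2:**
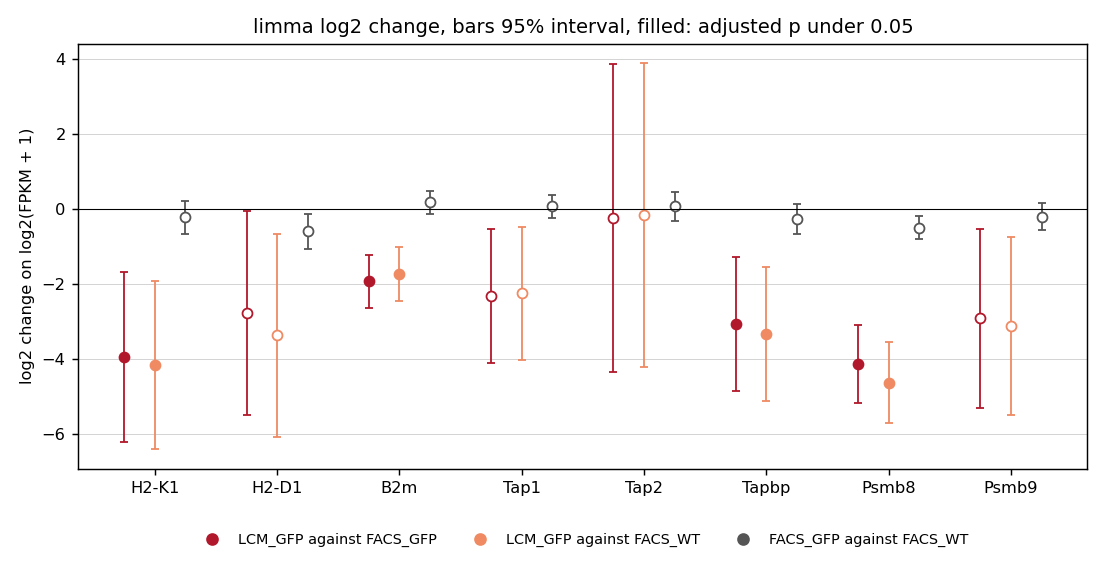
limma log2 change of each gene on the log2(FPKM + 1) scale (vertical axis), with 95% intervals as bars, in the 3 comparisons named in the legend; filled points have an adjusted p under 0.05. H2-K1, B2m, Tapbp and Psmb8 are filled in both comparisons with laser capture, the Tap2 intervals run from below −4 to above 3.8, and no point between the sorted groups is filled.

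The spread between replicates differed by isolation method. The SD of log2(FPKM + 1) across the laser-captured libraries was 0.506 (Psmb8) to 3.75 (Tap2), with a median of 1.78 over the 8 genes and 0.953 over 13820 genes. In sorted GFP libraries the median SD was 0.189 over the 8 genes and 0.132 over all, and in sorted wild-type libraries 0.230 and 0.172. In each group the median over the 8 genes lay above that over all genes. The order of mean levels in sorted GFP was B2m, H2-K1, H2-D1, Tapbp, Psmb8, Tap1, Tap2 and Psmb9, and sorted wild-type microglia had the same order except that Psmb9 (17.6 FPKM ± 3.02, SD, n = 3) stood above Tap2 (14.2 ± 2.31). Tap2 and Psmb9 overlapped across libraries in both sorted groups, so their order was within the spread. In laser-captured libraries Psmb8 came last at 0.874 FPKM ± 0.692 (SD, n = 4) and Tap2 came second at 113 ± 210, the latter resting on library 1.

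Levels were then set against the microglia markers of the same library, as the difference between each gene's log2(FPKM + 1) and the median over 24 microglia genes. That median averaged 7.08 in laser-captured, 8.72 in sorted GFP and 8.79 in sorted wild-type libraries. B2m stood 2.02, 1.41, 1.56 and 1.55 above the microglia median in laser-captured libraries 1 to 4. Its difference was 1.78 to 2.04 above that median in sorted GFP and 1.52 to 1.75 in sorted wild-type libraries, so B2m overlapped the sorted range on this scale. Psmb8 ran from −7.26 to −4.70 on this scale by laser capture and from −3.84 to −3.29 in sorted libraries, without overlap. H2-K1 ran from −3.59 to 0.23 on this scale by laser capture and from 0.64 to 0.97 in sorted libraries, and Tapbp from −4.95 to −2.72 and from −2.34 to −1.81. These 3 genes, Psmb8, H2-K1 and Tapbp, had 4 of 4 laser-captured libraries below the 6 sorted ones on this scale. The share of all genes that did so on this scale was not computed, so the count is a description only.

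With every library shifted to the same microglia median, limma called 2 of the 8 genes lower against sorted GFP, H2-K1 and Psmb8, where 1.27% of all genes were called lower. The changes were −2.32 for H2-K1 (SE 0.772, limma adjusted p = 0.0481) and −2.50 for Psmb8 (SE 0.716, adjusted p = 0.0250). Against sorted wild-type microglia H2-K1 and Psmb8 were called, beside 1.04% of genes lower, at −2.46 (limma adjusted p = 0.0331) and −2.93 (adjusted p = 0.0106). Tapbp was not called on this scale, at −1.42 (limma adjusted p = 0.120) and −1.62 (adjusted p = 0.0761). B2m differed by −0.29 (95% interval −1.05 to 0.47, limma adjusted p = 0.576) and −0.04 (−0.83 to 0.76, adjusted p = 0.950). This scaling moved the median change of all genes from −0.60 to 1.04 and from −0.59 to 1.12, and Tap2 turned positive at 1.39 and 1.54 (adjusted p = 0.604 and 0.543).

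**Figure D3:**
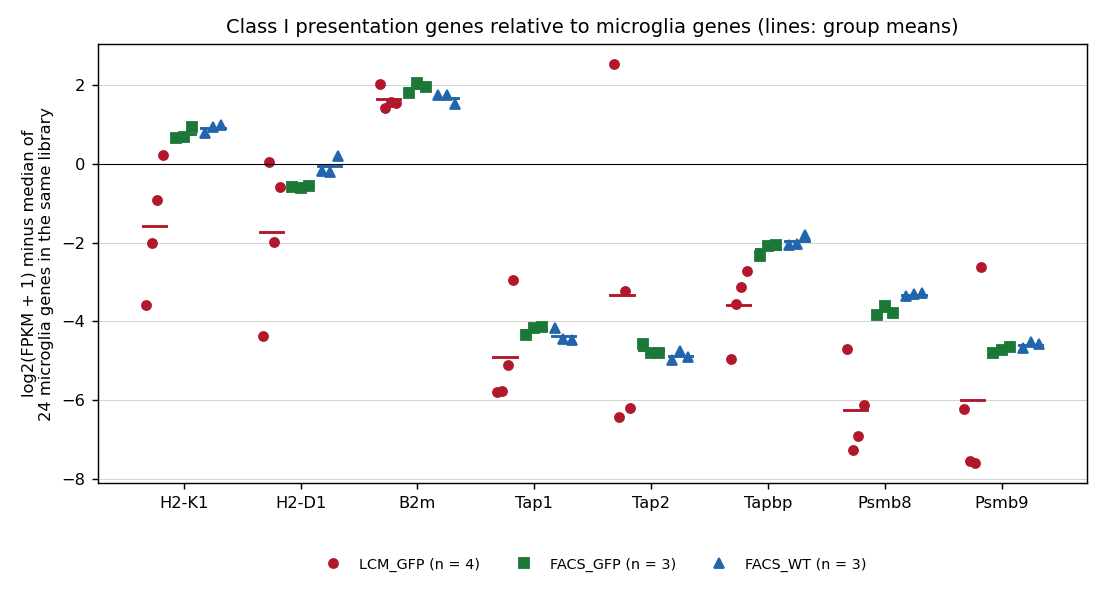
Level of each gene minus the median level of 24 microglia genes in the same library, in log2 units (vertical axis), with symbols by group as named in the legend and lines for group means. B2m of laser-captured libraries lies beside the sorted ones, while H2-K1, Tapbp and Psmb8 have 4 of 4 laser-captured libraries below the 6 sorted ones. The share of all genes that do so on this scale was not computed.

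A ratio of FPKM values within a library does not depend on scaling between libraries, but with 1 added to both it still does for genes near 0, such as Psmb8 and Psmb9 by laser capture. For 7 pairs the log2 ratio of (FPKM + 1) was compared between the 4 laser-captured and the 6 sorted libraries with a two-sided exact permutation test, whose smallest possible p is 0.00952, with Benjamini-Hochberg adjustment over the 7 pairs. No adjusted p was under 0.05. A single pair at the smallest possible p has an adjusted p of 0.0667 unless other pairs also come out low. The adjusted test could therefore not pass 1 pair alone, however far apart the groups lay. Psmb8 is the inducible counterpart of Psmb5, the constitutive subunit with chymotrypsin-like activity. The log2 ratio of Psmb8 to Psmb5 was −4.60, −4.75, −3.56 and −2.44 in laser-captured libraries and lay between −0.32 and 0.29 in sorted libraries. In sorted libraries the 2 subunits were thus at similar levels, with FPKM ratios of 0.797 to 1.23, and in laser-captured ones Psmb8 was at 0.00695 to 0.0804 of Psmb5. The mean difference was −3.84 (exact permutation p = 0.00952, adjusted p = 0.0667), and −3.59 with laser-captured libraries 2 and 4 alone, which cannot reach an exact permutation p under 0.0714. Psmb5 itself had log2 changes of −0.52 (limma adjusted p = 0.576) and −0.58 (adjusted p = 0.531).

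The log2 ratio of Psmb9 to Psmb6 differed by −2.08 (exact permutation p = 0.0667, adjusted p = 0.0778), with laser-captured library 4 at −1.88, above the sorted range of −3.12 to −2.94, and the other 3 below it. The third inducible subunit, Psmb10, differed from its counterpart Psmb7 by −1.30 (exact permutation p = 0.0667, adjusted p = 0.0778). The ratio of Psmb10 to Psmb7 rested on laser-captured library 1 at −5.16, while the other 3 libraries ran from −2.32 to −1.56 beside −2.06 to −1.06 in sorted libraries. The ratio of B2m to H2-K1 was 5.61, 3.41, 2.47 and 1.32 by laser capture and 0.55 to 1.36 in sorted libraries, a difference of 2.23 (exact permutation p = 0.0190, adjusted p = 0.0667). The ratio of H2-D1 to H2-K1 was 2.05 in laser-captured library 2 and −1.09 to −0.79 in the other 3, beside −1.49 to −0.79 in sorted libraries, a difference of 0.99 (exact permutation p = 0.0667, adjusted p = 0.0778). Tapbp differed from Tapbpl, which encodes the tapasin relative TAPBPR, by −1.97 (exact permutation p = 0.0286, adjusted p = 0.0667), with library 1 at −1.84 and the other 3 between 2.89 and 3.96 beside 3.88 to 4.50 when sorted. Tap1 to Tap2 ran from −8.32 to 3.23 by laser capture and from 0.22 to 0.81 in sorted libraries, a difference of −2.08 (exact permutation p = 0.562, adjusted p = 0.562).

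**Figure D4:**
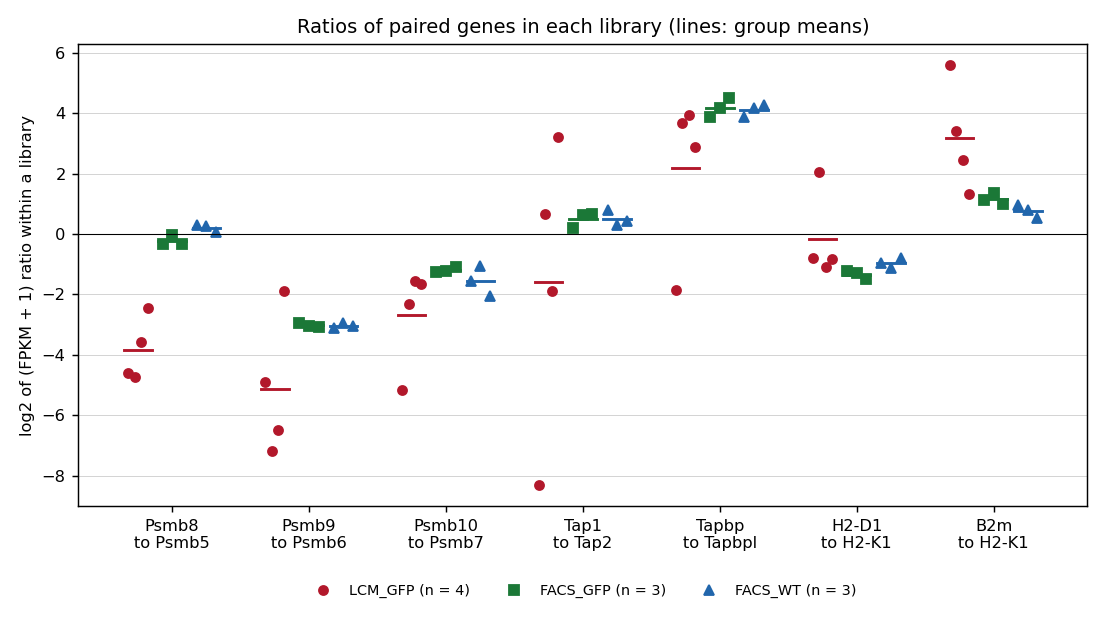
Log2 ratio of (FPKM + 1) of 2 genes within each library (vertical axis) for the 7 pairs on the horizontal axis, with symbols by group as named in the legend and lines for group means. Psmb8 to Psmb5 ran from −4.75 to −2.44 by laser capture and from −0.32 to 0.29 in sorted libraries, and Tap1 to Tap2 spread from −8.32 to 3.23 by laser capture.

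Other genes of the pathway were read from lists, in which 203 of 210 listed genes, the 8 members and cell markers included, were found by symbol. The counts called in each list below stand beside 19.6% of all genes called lower against sorted GFP and 19.1% against sorted wild-type microglia. Of 26 other class I heavy chains and relatives 22 were matched and 14 tested. Against sorted GFP 8 of the 14 were called lower and 0 higher (median log2 change −2.59), and against sorted wild-type microglia 9 and 0 (−2.69). H2-Q4, H2-Q6 and H2-Q10 stayed below 1 FPKM in every laser-captured library and passed the filter through sorted libraries alone. They could only come out lower. H2-K2, H2-Q5 and Cd1d1 reached 1 FPKM in 1 laser-captured library each. The counts and medians therefore do not test the direction of such genes. Among the 14 tested, H2-T23 (Qa-1, a ligand of the inhibitory natural killer receptor with the Klrd1 chain) stood at 24.6 FPKM ± 26.0 (SD, n = 4) by laser capture, 97.2 ± 21.4 (SD, n = 3) in sorted GFP and 135 ± 46.7 (SD, n = 3) in sorted wild-type libraries. It was called against sorted wild-type microglia (log2 change −3.29, limma adjusted p = 0.0462) and not against sorted GFP (−2.86, adjusted p = 0.0720). H2-M3, which presents formylated bacterial peptides, was called in both (−2.30, limma adjusted p = 0.0438, and −2.66, adjusted p = 0.0267). Hfe, a class I relative that regulates iron uptake, did not pass (−3.41, limma adjusted p = 0.0637, and −3.34, adjusted p = 0.0678). Klrd1 was listed at 0 in laser-captured libraries 3 and 4 and stood at 0.0702 and 86.9 FPKM in libraries 1 and 2, beside 26.5 to 48.2 in sorted libraries. Klrk1 and Cd8b1, the next highest receptor genes that read class I, stayed below 0.07 FPKM in every library. The 12 lymphocyte and natural killer cell markers summed to between 0 and 31.2 FPKM by laser capture and 34.8 and 74.3 in sorted libraries. Nearly all of that was Cd79b, a B cell receptor chain, at 34.3 to 74.0 FPKM in sorted libraries and called lower by laser capture (−3.65, limma adjusted p = 0.0410, and −3.96, adjusted p = 0.0316). Cd4 reached at most 1.38 FPKM, and Cd3e, Cd3g, Cd2, Nkg7, Gzma and Ncr1 were listed at 0 in all 10 libraries. The part of such cells in the class I levels was not tested.

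Of 9 loading and trimming factors of the endoplasmic reticulum tested, 0 were called against sorted GFP and 1 against sorted wild-type microglia, with medians of −0.71 and −0.54 beside −0.60 and −0.59 for all genes. Calr, the lectin chaperone of the loading complex, stood at 217 FPKM ± 32.4 (SD, n = 4) by laser capture and at 216 ± 29.9 (SD, n = 3) in sorted GFP libraries, a log2 change of 0.01 (limma adjusted p = 0.984). Canx, the membrane-bound chaperone, had a change of −0.44 (adjusted p = 0.589). Pdia3, the disulfide isomerase of the complex, was called lower against sorted wild-type microglia (−1.11, limma adjusted p = 0.0312) and not against sorted GFP (−0.76, adjusted p = 0.0946).

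Of 4 tested genes of the inducible proteasome beside Psmb8 and Psmb9, 1 was called lower in each comparison, Psme2, a subunit of the PA28 activator (−1.61, limma adjusted p = 0.0227, and −1.56, adjusted p = 0.0268). Its partner Psme1 had changes of −2.42 (limma adjusted p = 0.0749) and −2.69 (adjusted p = 0.0524), and the assembly factor Pomp of −1.02 (adjusted p = 0.0569) and −0.93 (adjusted p = 0.0756). Of the 3 constitutive catalytic subunits and of 11 other core subunits 0 were called in either comparison, with medians against sorted GFP of −0.55 and −0.81. Psma3, the core subunit with the highest mean over the 10 libraries, had changes of −1.67 (limma adjusted p = 0.0652) and −1.67 (adjusted p = 0.0651), and Psma7 and Psmb2, next in that order, of −0.81 (adjusted p = 0.188) and 0.28 (adjusted p = 0.805) against sorted GFP. Of 19 cap subunits 0 were called against sorted GFP and 1 against sorted wild-type microglia, Psmc4 (−1.72, limma adjusted p = 0.0458). The 3 highest genes of that list, Psmd14, Psmd7 and the activator subunit Psme3, had changes against sorted GFP of 0.56 (limma adjusted p = 0.519), 1.19 (adjusted p = 0.232) and 0.10 (adjusted p = 0.910). Of 7 cytosolic peptidases 1 was called lower in both, Tpp2, which shortens long peptides (−1.38, limma adjusted p = 0.0197, and −1.29, adjusted p = 0.0276), while Nrd1 and Npepps, the 2 highest of the list, had changes of −0.60 (adjusted p = 0.316) and 0.02 (adjusted p = 0.981) against sorted GFP.

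Of 15 transcription regulators of class I genes 5 were called lower and 0 higher in each comparison, with medians of −1.53 and −1.70. Nlrc5, the class I transactivator, had 0.114, 1.69, 0.0173 and 0.190 FPKM by laser capture and 2.06 to 3.05 in sorted libraries, with changes of −1.35 (limma adjusted p = 0.0301) and −1.24 (adjusted p = 0.0387). Rfx5, a factor of the X box, changed by −1.75 (limma adjusted p = 0.0398) and −1.85 (adjusted p = 0.0332), and Creb1, which binds CRE sites, by −2.77 (adjusted p = 0.00432) and −2.19 (adjusted p = 0.0146). Irf1, an activator of interferon response elements, changed by −1.98 (limma adjusted p = 0.0331) and −2.09 (adjusted p = 0.0277), and Irf2, its antagonist, by −1.76 (adjusted p = 0.0271) and −1.74 (adjusted p = 0.0301). Nfkb1 did not pass (−2.67, limma adjusted p = 0.0719, and −2.76, adjusted p = 0.0647), nor did Irf9 (−2.52, adjusted p = 0.192, and −2.41, adjusted p = 0.206).

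Of 7 tested interferon receptor and signalling genes 5 were called lower in each comparison and 0 higher, with medians of −1.41 and −1.48. Among the 24 microglia markers 16 and 21 were called lower in the same comparisons. Ifngr1, the ligand-binding chain of the interferon-gamma receptor, stood at 83.1 FPKM ± 51.4 (SD, n = 4) by laser capture against 341 ± 20.4 (SD, n = 3) in sorted GFP and 393 ± 38.6 (SD, n = 3) in sorted wild-type libraries (−2.30, limma adjusted p = 0.0198, and −2.50, adjusted p = 0.0140). Its partner chain Ifngr2 changed by −2.61 (limma adjusted p = 0.00433) and −2.94 (adjusted p = 0.00235). Ifnar2, of the type I interferon receptor, changed by −1.72 (limma adjusted p = 0.00702) and −1.80 (adjusted p = 0.00587), and the kinases Jak1 (−1.14, adjusted p = 0.0401, and −1.15, adjusted p = 0.0429) and Tyk2 (−1.41, adjusted p = 0.0460, and −1.48, adjusted p = 0.0429) were called too. Between the sorted groups limma called 0 genes of any of these pathway lists.

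The genes of most like pattern were found by centring log2(FPKM + 1) of each gene over the 10 libraries and taking the root mean square difference from the median profile of the 8 members, among 6473 genes with a mean of at least 10 FPKM. The members were left out, as were symbols of the kinds used for predicted genes, clones, pseudogenes and small RNAs. The closest were Eif1a (0.231), Thrsp (0.249), Ifngr2 (0.266), Riok2 (0.266), Ppp1r3b (0.266) and Gbp9 (0.280), beside a median of 1.43 over the genes compared. Among the members themselves the difference was 0.433 for Tapbp, 0.555 for Tap1, 0.751 for B2m, 0.818 for H2-K1, 0.973 for Psmb8, 0.982 for Psmb9, 1.10 for H2-D1 and 2.78 for Tap2. Tap2 lay farthest of the 8 from this median profile.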

How the data were processed

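Cufflinks 2.0.2, Bowtie2 2.0.0, TopHat2 2.0.4, CASAVA 1.8.2 and the build mm9 are named in the submitters' processing notes; annotation, strand and the handling of multiply mapped reads are not given in the sources used here. The deposited FPKM values per gene and library were used as the authors made them. A second deposited table in Cuffdiff layout, per the file headers, gave the authors' log2 fold changes, p-values and q-values. The files give no read counts, so counting intervals were not computed and depth per library is unknown. A value of 0 can be a failed estimate. File starts count from 0, and 1 was added.

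Genes with at least 1 FPKM in at least 3 compared libraries were fitted on log2(FPKM + 1) with limma 3.58.1 (trend and robust, statmod 1.5.0, R 4.3.3), with only the 2 groups compared in each fit, two-sided tests and Benjamini-Hochberg adjustment over all genes. The fit was tested on simulated data. Ratios used exact permutation tests (scipy 1.17.1). Replicate numbers did not pair libraries. Motifs were searched in RefSeq windows, and shared stretches of 50 bases in protein-coding transcripts of a GRCm38 annotation.

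The members and lists were chosen with earlier results of these data known. Named were the 8 members, the 3 highest genes by mean FPKM of each pathway list, further list genes called where 5 or fewer were called in a direction, partners in ratios, and the 6 genes of most like pattern; cell marker lists are given by sums and counts. Genes outside the tested set had low FPKM. A gene can pass the filter through the libraries of 1 group alone, as Psmb8 and Psmb9 could through the sorted ones. Its direction is then partly set by the filter. Alternatives were other pseudocounts (0.1, 5), filters (none, 5 FPKM), scalings, the replicate block, all 3 groups, variance weights, a sex covariate, each library left out, and laser-captured libraries 2 and 4 alone.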

Additional observations from a re-analysis of the deposited data

Results flagged for a closer look

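In the laser-captured group of 4 libraries, 7 of the 47 values examined had 1 library whose gap to the nearest other, divided by the range, exceeded Dixon's critical value for 4 samples (14.9%). Chance gives about 1 in 20 for normally distributed values, and FPKM, examined here without logs except in the ratios, need not be so distributed. In that group 19.0% of 13604 genes exceeded the same limit, so the share was near the background of these libraries. Tap2 stood at 427 FPKM in laser-captured library 1 (gap over range 0.949), the library with the highest Hbb-y. Psmb9 stood at 17.2 FPKM in library 4 (0.993), the library with the highest Tap1 of the 4. The log2 ratio of H2-D1 to H2-K1 was 2.05 in library 2 (0.904).

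Outside the 8 genes, Tapbpl stood at 7.58 FPKM (gap over range 0.856) and the core proteasome subunit Psmb2 at 461 FPKM (0.933) in library 1. Irf9 stood at 127 FPKM in library 3 (0.852) and Klrd1 at 86.9 FPKM in library 2 (0.999).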

How the results depend on the processing

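The count of members called against sorted GFP (4) was 2 with scaling on the microglia list and 7 with a variance weight per group. These settings called 170 and 3306 of 13403 genes lower. With 1 library left out it was 2 to 6, where 304 of 12697 to 3400 of 13045 genes were called lower. Against sorted wild-type microglia (4) it was 2, 7 and 2 to 6. There 140 and 3189 of 13415 genes were called lower, and 326 of 12695 to 3267 of 13044 with 1 library left out. It was also 7 with all 3 groups in the fit, where 3724 of 13415 genes were called lower. With the sex label as covariate only Psmb8 kept its call, in a fit that sets laser-captured library 2 alone against the wild-type libraries. With laser-captured libraries 2 and 4 alone the count of members was 5 and 6, where 4084 of 11547 and 3798 of 11586 genes were called lower. Between the sorted groups it was 0 in each of 19 alternatives. Over all genes the calls ran from 1042 (without sorted GFP library 3) to 5933 (all 3 groups) against sorted GFP, where the deposited scale gave 4305, and from 1089 to 5877 against sorted wild-type microglia (4207), with 1760 under the sex covariate; between sorted groups they ran from 3 to 19 (13). Scaling changed the split of calls against sorted GFP from 1681 higher and 2624 lower to 1856 and 1252 by median ratios and to 3476 and 170 by the microglia list; the cause was not tested.

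The replicate block gave 6 members called against sorted GFP, 7 against sorted wild-type microglia and 0 between sorted groups, where it called 1933 of 13403 genes lower, 1907 of 13415 lower and 19 of 11814 in either direction. No pairing was apparent, since deviations of same-numbered libraries correlated at −0.04 to 0.11. Under the block laser-captured library 4, whose number has no partner, adds nothing to the changes.

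Tap2, never called higher, changed sign against sorted GFP to 0.33 with a pseudocount of 5, 0.26 with median ratios, 1.39 with the microglia list, 0.80 with the block, and 0.64 and 0.80 without laser-captured library 2 or 4 (−1.90 to 0.80 with 1 library left out); against sorted wild-type microglia the values were 0.40, 0.33, 1.54, 0.88, 0.72 and 0.88 (−1.82 to 0.88). Between sorted groups Tap1 turned to −0.056 with the sex covariate, −0.021 without sorted GFP library 3 and −0.0037 without wild-type library 2 (−0.021 to 0.138 with 1 library left out). There Tap2 turned to −0.186 with the sex covariate, and to −0.035 and −0.0453 without GFP or wild-type library 1 (−0.0453 to 0.213). None of these was called. The sex covariate here sets sorted GFP library 2 alone against the wild-type libraries, all labelled male. A pseudocount of 5 brought 3 ratios under 0.05: Psmb8 to Psmb5 (−2.38, exact permutation adjusted p = 0.0333), Tapbp to Tapbpl (−2.18, 0.0333) and B2m to H2-K1 (2.01, 0.0444). Tap1 to Tap2 turned to 1.44 with laser-captured libraries 2 and 4 alone and to 0.16 without library 1 (−3.69 to 0.16 with 1 library left out).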
